A study of Mus musculus with 2 samples.

Results

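The DMSO library is the solvent control of a single-cell RNA study of mouse E14 embryonic stem cells. Its members are all barcodes deposited for that library, of which 764 reached the common depth set below and 47 did not, out of 1553 barcodes over the 2 libraries of the series. E14 is a male stem cell line. The label gives its strain as C57BL/6, which was not checked here. Per the labels the cells grew without feeder cells on gelatin in 2i medium with LIF and received DMSO alone for 24 h before they were detached and run on a 10x Chromium instrument with 3′ V2 chemistry. It is 1 library of 1 line. There is no replicate, so values below describe these cells, carry no test, and have intervals for counting error only.

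In 2i/LIF medium an inhibitor of the MEK kinase blocks the ERK differentiation signal, an inhibitor of the kinase GSK3 stabilises beta-catenin, and leukaemia inhibitory factor (LIF) activates the transcription factor STAT3. Mouse stem cells held this way are known as ground-state cells. They are known for broad expression of the transcription factors Oct4 (Pou5f1), Sox2, Nanog, Klf4, Esrrb and Rex1 (Zfp42).

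The library held 40818344 transcript molecules counted by unique molecular identifiers (UMIs), with a median of 44502 per cell. To compare cells at equal depth, each was thinned at random to 23500 UMIs, which kept 764 cells and left out 47 shallower ones. Mitochondrial transcripts made up a median of 2.56% of a cell's UMIs, and 10 cells were above 5%. No cell was removed for its mitochondrial share, and only the 47 shallower cells were left out at equal depth. Levels are given as CPM, a gene's UMIs summed over all cells of the library per 1000000 UMIs. As 3′ counting takes 1 tag per transcript, CPM values were compared between genes without scaling by length. Differences between genes in capture and read assignment were not corrected, so a low CPM need not mean low expression.

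All 6 ground-state markers were present, and 5 of them in nearly every cell. Oct4, the product of Pou5f1, is the factor around which this network is built, and its gene was found at 2072 CPM (95% interval 2058 to 2086). At equal depth its UMIs per cell ran from 13 to 88 with a median of 47, so each of the 764 cells held UMIs of it. Zfp42, which encodes the zinc finger protein Rex1, ran from 5 to 50 UMIs with a median of 21, and it too had UMIs in each of these cells. RNA free in the cell suspension can add UMIs to any cell, and its share was not measured here, so a UMI is not by itself expression of the gene.

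Sox2, the partner of Oct4 on DNA, had a UMI in 762 cells (99.7%) and ran from 0 to 22 with a median of 7. Nanog, a homeobox factor that stabilises self-renewal, had a UMI in 758 cells (99.2%), from 0 to 24 with a median of 7. Klf4, a Krüppel-like factor downstream of STAT3, had a UMI in 752 cells (98.4%), from 0 to 25 with a median of 7. Sox2, Nanog and Klf4 thus had the same median, with few cells at 0. Esrrb, an orphan nuclear receptor of the naive network, was the exception. It stood at 33.5 CPM (31.8 to 35.3), had a UMI in 421 cells (55.1%, exact binomial 51.5 to 58.7) and never passed 4 UMIs.

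On GRCm38 these genes lie at chr17:35506018-35510772 (Pou5f1), chr3:34650405-34652461 (Sox2), chr6:122707489-122714633 (Nanog), chr4:55527143-55532466 (Klf4), chr12:86361117-86521628 (Esrrb) and chr8:43295063-43306980 (Zfp42).

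**Figure D1:**
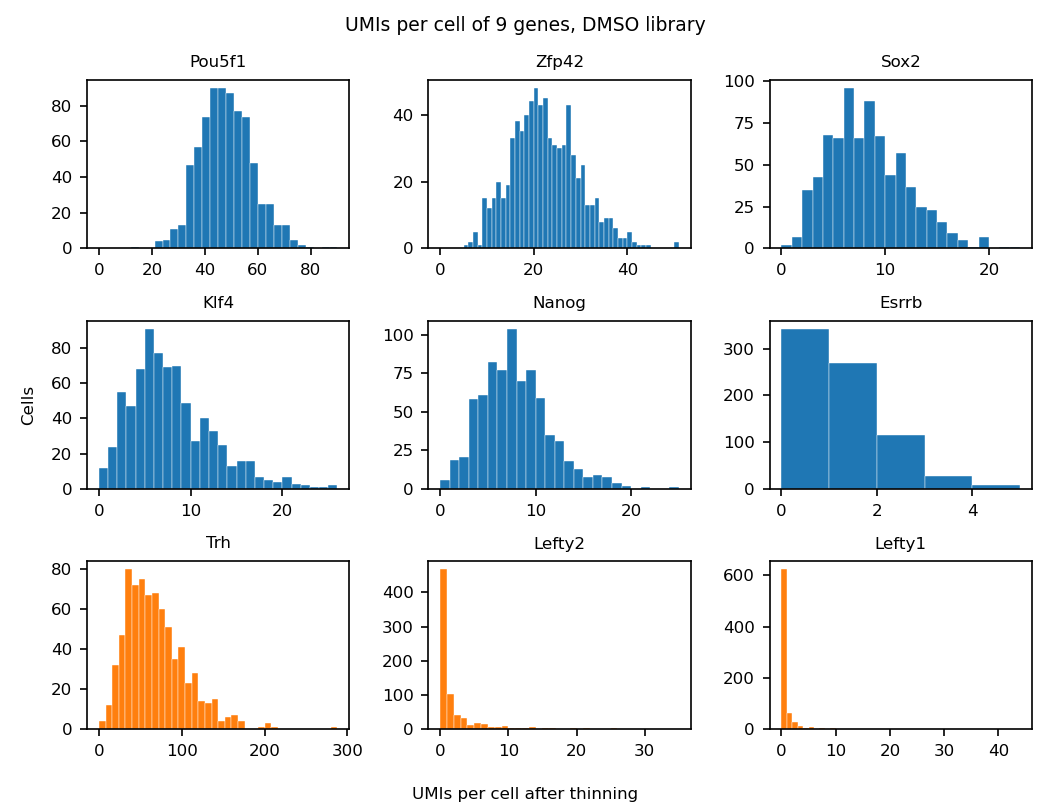
UMIs per cell after thinning to 23500 (horizontal axes) against the number of cells (vertical axes) for 9 genes in 764 DMSO cells. Bar widths and axis ranges differ between panels. Pou5f1 and Zfp42 have no cell at 0, Esrrb stays at 4 UMIs or fewer, and Lefty1 and Lefty2 are at 0 in most cells with tails to 43 and 34 UMIs.

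The wider naive network was detected in full, with 23 of 23 genes and 0.789% of all UMIs. Its most abundant members were Dppa5a (1537 CPM), an RNA-binding protein of early embryo cells, Klf2 (1386 CPM) and Tdh (1367 CPM), the threonine dehydrogenase on which mouse stem cells depend. Tfcp2l1 (156 CPM) and Tbx3 (121 CPM), transcription factors of the LIF and naive circuits, lay lower, and Prdm14 (8.38 CPM) and Dppa3 (4.75 CPM) lower still. The general pluripotency list was also complete, with 17 of 17 genes and 0.757% of UMIs, led by Pou5f1, Dppa5a, the Nodal co-receptor gene Tdgf1 (626 CPM), and Trim28 (602 CPM), a corepressor of retroviral elements.

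Targets of the pathways that the medium acts on stood at different levels. Of LIF and STAT3 targets, Klf4 (306 CPM), Pim1 (151 CPM), Pim3 (141 CPM) and the feedback inhibitor gene Socs3 (138 CPM) were above 100 CPM. The 16 ERK targets ranged widely. Ier2, an immediate early gene, stood at 271 CPM and Ccnd1, the cyclin D1 gene, at 206 CPM. The feedback inhibitor genes Dusp6, Spry2 and Dusp4 stood at 15.6, 13.9 and 1.00 CPM and the immediate early gene Egr1 at 3.90 CPM. Sp5 (174 CPM) and Axin2 (38.5 CPM), direct targets of beta-catenin, were both detected.

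Defining markers of other cells that a stem cell culture could hold were at low levels. The 5 markers of 2-cell-embryo-like cells, Zscan4c, Zscan4d, Usp17la, Tcstv1 and Zfp352, had 0 UMIs in the library. By counting error alone this allows up to 0.0735 CPM. Whether reads of these genes were lost to similar copies was not examined, so the 0 does not bound their expression. The 5 primitive endoderm markers together stood at 1.18 CPM (0.867 to 1.56), with at most 2 UMIs in a cell. The 5 fibroblast or feeder markers stood at 0.686 CPM, with Col1a1 and Col3a1 at 0, and the 4 blood and endothelium markers at 0.858 CPM, with Ptprc and Hbb-bs at 0. Trophectoderm markers summed to 11.4 CPM and mesendoderm markers to 17.5 CPM. For trophectoderm 20 cells held 5 or more UMIs, the highest 24. Formative or primed markers summed to 121 CPM (118 to 125), of which the DNA methyltransferase gene Dnmt3b gave 114 CPM, while Fgf5 had 3 UMIs in the library.

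Wider lists for the same cell types hold genes that stem cells also express, and these were found. The fibroblast list was led by the intermediate filament gene Vim (571.5 CPM), the primitive endoderm list by the matrix protein gene Sparc (357 CPM), the neuroectoderm list by the tubulin gene Tubb3 (127 CPM) and the trophectoderm list by the keratin gene Krt8 (93.5 CPM). Of the wider 2-cell list 20 genes were in the files, and 4 of these were detected, with 11 UMIs in all. Vim had a UMI in 763 of the 764 cells, from a library in which Col1a1 and Col3a1 were at 0.

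A small number of genes made up much of the RNA. The 10 most abundant genes held 6.95% of UMIs and the 100 most abundant 29.0%, and 428 of the 17221 detected genes held 50%. Ribosomal protein genes took 13.4% of UMIs (88 of 88 detected), translation factors 4.10% and mitochondrially encoded genes 2.71%. Splicing factors took 2.20%, nuclear genes of the respiratory chain 2.00%, heat shock chaperones 1.93%, glycolysis and hypoxia genes 1.85% and the proteasome 1.37%. Replacement histones, which are made through the whole cycle, took 1.14%. Replication-dependent histones took 0.0244%, and their transcripts mostly lack the poly(A) tail by which 3′ libraries are primed.

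Outside the ribosomal and mitochondrial genes, Eef1a1, the elongation factor that brings aminoacyl-tRNA to the ribosome, was highest at 10547 CPM. It was followed by the glycolytic enzyme gene Gapdh (8803 CPM), Gm10116 (7244 CPM), the histone variant gene H2afz (7022 CPM), Ptma (6620 CPM) and Gm8730 (6234 CPM). The 25 highest also held the chaperone and cytoskeleton genes Hspa8 (5318 CPM), Hsp90ab1 (4674 CPM) and Actb (2595 CPM). Trh, which encodes the precursor of thyrotropin-releasing hormone, a neuropeptide, was among them too at 2970 CPM (2954 to 2987).

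Gm10116 and Gm8730 are close copies of other genes, so their counts are uncertain. A transcript of Gm10116, annotated as Ftl1-ps1, aligned to Ftl1, the ferritin light chain gene, over 930 bases at 97.3% identity. Gm8730 aligned to the ribosomal protein gene Rplp0 over 954 bases at 98.7% identity. Ftl1 stood at 455 CPM and Rplp0 at 4605 CPM, so the copy of the ferritin gene was listed above the gene itself.

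How much cells differed was measured at equal depth by the Fano factor, variance divided by mean, which counting alone would put at 1. Genes entered at an average of 0.25 UMI or more per thinned cell. Over these 7451 genes the median Fano factor was 1.08, and 612 (8.21%) reached 1.5. For 58.1% of genes it was below 1.1. A more abundant gene reaches a given Fano factor at a smaller relative spread. Genes with a mean of 0.25 to 0.5 UMI passed 1.5 in 1.43% of cases, those of 2 to 5 in 8.18% and those of 20 to 50 in 95.3%. The counting-corrected CV2, the squared relative spread after the counting part is taken off, had a median of 0.114 in the lowest of these ranges and 0.0357 in the highest.

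**Figure D2:**
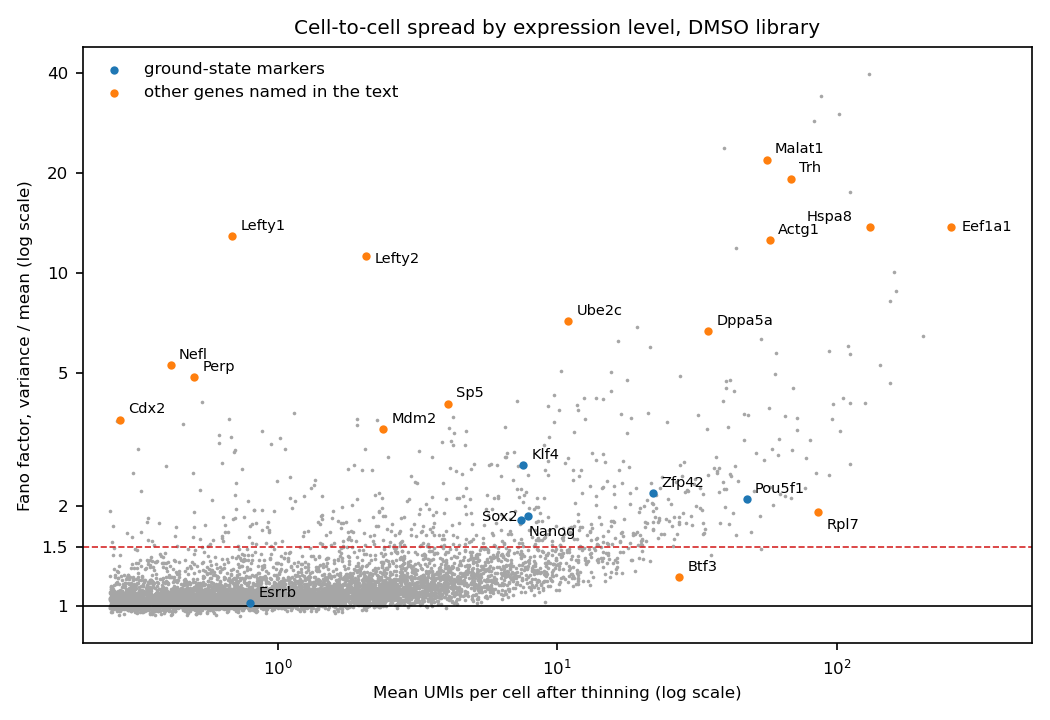
Fano factor (vertical axis, log scale) against mean UMIs per cell after thinning (horizontal axis, log scale) for 7451 genes. The black line is the value from counting alone and the dashed line is 1.5. Malat1 (22.0) and Trh (19.3) stand far above most genes of their level, and Esrrb (1.02) lies on the counting line.

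Of the 6 markers 5 passed 1.5, beside 8.21% of all genes. Level matters for this count. In the range of Pou5f1 and Zfp42, a mean of 20 to 50 UMIs, 95.3% of genes passed. In that of Sox2, Nanog and Klf4, 5 to 10 UMIs, 19.5% did. The median counting-corrected CV2 in these ranges was 0.0357 and 0.0398. Klf4 had the widest Fano factor among them (2.64), followed by Zfp42 (2.18), Pou5f1 (2.10), Sox2 (1.86) and Nanog (1.82). Esrrb, at 1.02, lay within 1 SD of counting (0.0512). On the relative scale the order was different. The counting-corrected CV2 was 0.218 for Klf4, 0.110 for Nanog, 0.109 for Sox2, 0.0536 for Zfp42 and 0.0230 for Pou5f1, so Pou5f1 was the most even of these 5. At 10000 UMIs per cell Nanog and Sox2 fell to 1.37 and no longer passed, since a shallower depth moves every Fano factor toward 1.

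Outside the ribosomal and mitochondrial genes, Malat1 had the highest Fano factor (22.0). It encodes a long noncoding RNA kept in the nucleus, and ran from 0 to 255 UMIs per cell with a median of 49.5. Trh (19.3) ran from 7 to 282 UMIs with a median of 63. Each cell thus held UMIs of Trh. Eef1a1 and Hspa8, a constitutive chaperone of the Hsp70 family, both stood at 13.8, the cytoplasmic actin gene Actg1 at 12.6 and H2afz at 10.1. Their counting-corrected CV2 values ran from 0.0499 for Eef1a1 to 0.201 for Actg1, with 0.267 for Trh and 0.374 for Malat1. The median over genes with a mean of at least 50 UMIs was 0.0322.

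By relative spread the leading genes were others, each with no UMI in most cells at equal depth. Lefty1 (CV2 17.4) and Lefty2 (4.96) encode secreted inhibitors of Nodal. Nefl (10.4) encodes a neurofilament protein, Cyp1a1 (9.75) a cytochrome P450 of the aryl hydrocarbon response, Cdx2 (9.70) the homeobox regulator of trophectoderm, and Perp (7.72) a p53 target of cell junctions. Ly6a (6.21), the germline tubulin gene Tuba3a (5.76) and the cation channel gene Trpm1 (5.46) followed. Cdx2 had a UMI in 110 cells (14.4%), with up to 12, and its 10 highest cells held 28.4% of its UMIs.

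Gene groups differed in how many members passed 1.5, beside 8.21% of all genes. Cytoskeleton and adhesion genes passed in 17 of 25 cases, heat shock chaperones in 8 of 13, G2/M genes in 30 of 54, general pluripotency genes in 9 of 17, naive genes in 9 of 20 and p53 targets in 14 of 28. Ribosomal protein genes passed in 65 of 86 cases, at a high mean level and with a median Fano factor of 1.79. At the low end, mitochondrial ribosomal protein genes passed in 0 of 76 cases, with a median Fano factor of 1.06. Nuclear respiratory chain genes passed in 5 of 87, proteasome genes in 2 of 46, and Zfp zinc finger genes in 3 of 122. The lists differ in abundance as well, and their part in these counts was not tested.

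**Figure D3:**
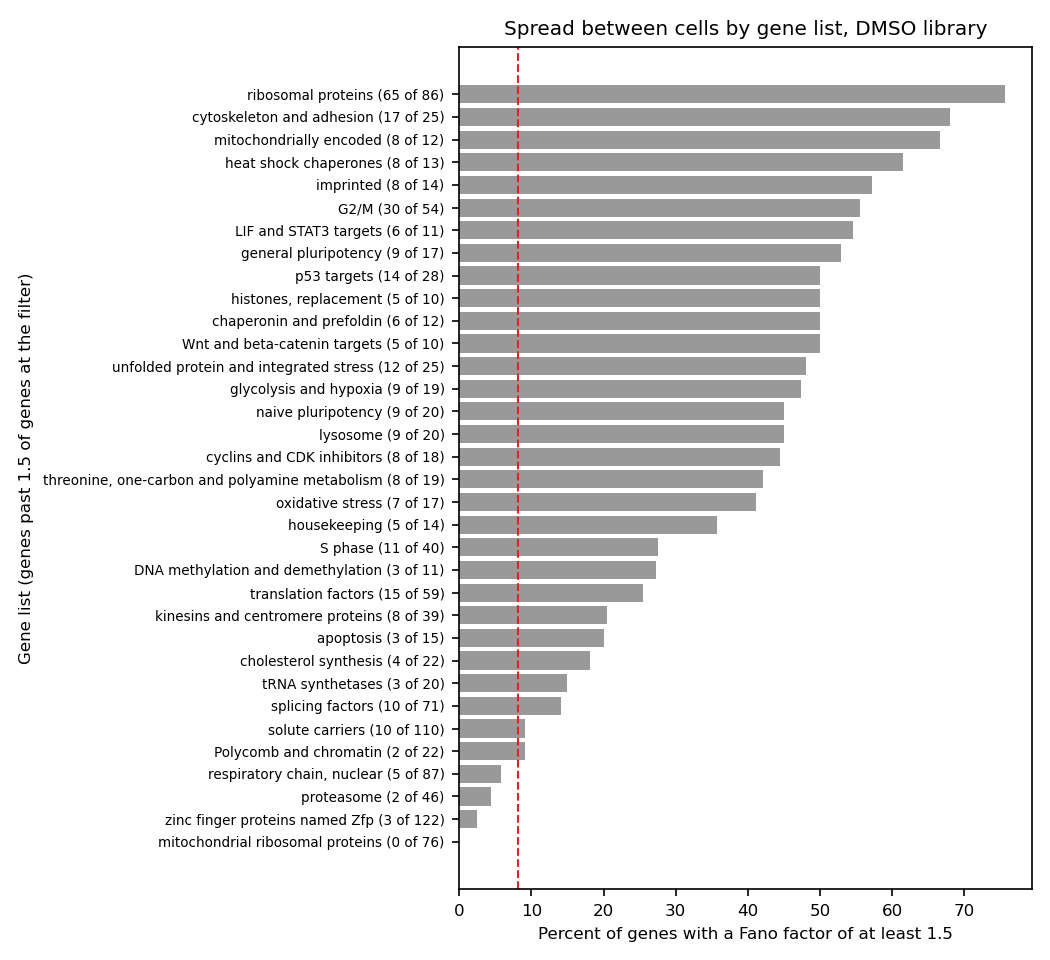
Percent of a list's genes at the filter with a Fano factor of at least 1.5 (horizontal axis), for lists with 10 or more such genes (vertical axis). The dashed line is the value over all genes, 8.21%. Ribosomal protein genes (65 of 86) are highest and mitochondrial ribosomal protein genes (0 of 76) lowest.

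Targets of the pathways that the medium acts on passed 1.5 in 6 of 11 LIF targets, 3 of 9 ERK targets and 5 of 10 Wnt targets, beside 8.21% of all genes. Klf4 was the most variable LIF target at 2.64, Ccnd1 the most variable ERK target at 2.10, and Sp5 the most variable Wnt target at 4.05. Ccnd1 is on the Wnt list as well, so it counts in both lists and its spread is not assigned to either pathway. Sp5 ran from 0 to 36 UMIs per cell with a median of 3.

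Cyclins and imprinted or methylation-linked genes had members on both sides of 1.5, which 8.21% of all genes reached. Of 18 cyclin, CDK and inhibitor genes 8 passed, led by the mitotic cyclin gene Ccnb1 (Fano factor 4.03, 496 CPM) and Cdk1 (3.98), while Ccne1, which encodes cyclin E1 of the G1/S step, had 2.34. Of 14 imprinted genes 8 passed, with the noncoding RNAs Meg3 (4.21) and Kcnq1ot1 (2.45) and the retrotransposon-derived gene Peg10 (3.36) first. Peg10 and its neighbour Sgce at the proximal end of chromosome 6 had r = 0.36. H19 and Igf2 were at 0 UMIs. Of 11 genes of DNA methylation 3 passed, and Dnmt3l, the cofactor of the de novo enzymes, was highest (1.90), while the hydroxylase gene Tet1 had 1.37.

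Germline genes known to be held down by promoter methylation took 0.0146% of UMIs. All 5 that reached the filter passed 1.5, among 25 detected, beside 8.21% of all genes. Tuba3a had a UMI in 197 cells with up to 16, Tex19.1 in 263 with up to 12, the meiotic axis gene Hormad1 in 312 with up to 9 and the cohesin gene Rec8 in 123 with up to 7. Each of these genes thus had no UMI in most cells. Such a gene reaches the filter through the cells where it is high, which also raises its Fano factor. Immediate early genes passed in 7 of 9 cases, beside 8.21% of all genes, led by Jund (2.93) and Btg2 (2.07). Of the 9 interferon and MHC genes Bst2 (1.71), Ifitm1 (1.68) and Ifitm3 (1.62) passed.

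Several abundant genes varied little beyond counting. Among genes with a mean of at least 10 UMIs, Btf3, a nascent chain binding factor, had the lowest counting-corrected CV2 (0.00810), with 12 to 53 UMIs per cell and a median of 27. Low values were also found for the ribosomal protein genes Rpl5 (0.00892) and Rpl7 (0.0106). Naca, the partner of Btf3, was also low (0.012). A CV2 of 0.00810 is a relative SD of 0.0900. Gapdh, often used as a reference gene, had a CV2 of 0.0269.

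Some genes had UMIs in few cells. Of the 15 genes with the highest Fano factor at a mean of 0.02 to 0.25 UMI, 1700013H16Rik had a UMI in 11 cells of the whole library, and 10 of them held 98.2% of its UMIs. Rhox5, an X-linked homeobox gene, had a UMI in 44 cells with up to 52 in a cell, and 80.2% of its UMIs lay in 10 cells. Rhox13, Stra8, the meiosis gatekeeper gene, Dppa3 and the cyclin gene Ccnd2 were found in 97, 48, 96 and 112 cells. The cells coincided to different degrees. Ccnd2 had a UMI in 13.8% of all cells. It had one in 13 of the 21 cells with Lamb3 (61.9%) and in 22 of the 97 with Rhox13 (22.7%), which is 11.6% and 19.6% of the cells with Ccnd2. Of the 11 cells with 1700013H16Rik 5 (45.5%) also had Dppa3, which is 5.21% of the cells with Dppa3. Dppa3 was found in 11.8% of all cells. The share for Ccnd2 in cells with Lamb3 was the largest of the pairs compared. These counts use all UMIs of cells of 14814 to 136231 UMIs. Deeper cells are likelier to hold both genes, and the part of depth was not tested.

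Gene pairs were then compared across the 764 cells by Pearson r of log2(thinned UMIs + 1), for 3836 genes with a mean of at least 1 UMI. The cells share a library and a depth, and an r is given as a description. Over 7355530 pairs the median r was 0.0025, the central 98% lay between -0.125 and 0.136, and 4327 pairs (0.0588%) reached 0.3. The 10 pairs among the 5 markers at this level had a median r of 0.13 and ran from -0.01 (Pou5f1 with Nanog) to 0.23 (Klf4 with Zfp42). None reached 0.3, while 5 lay above 0.136, namely those of Klf4 with Zfp42, Sox2 (0.22) and Nanog (0.19), and of Zfp42 with Sox2 (0.17) and Pou5f1 (0.16). Esrrb, whose mean of 0.796 UMI is below this level, had r between -0.05 and 0.07 with the other markers. Nanog was most like Eif4a1 (r = 0.32), an RNA helicase of translation initiation, then Hnrnpf (0.30) and Ddx5 (0.28). Pou5f1 was most like Dppa5a (0.25) and Tdgf1 (0.24), and Sox2 had r = 0.26 with the ribosomal protein gene Rps27a.

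Of the lists compared, G2/M genes gave the most linked pairs after ribosomal protein genes. Among 47 G2/M genes 346 of 1081 pairs reached 0.3, beside 0.0588% of all pairs. Cdk1, the kinase that drives mitosis, and Top2a, which untangles chromosomes, had r = 0.73. Nusap1, a spindle protein, and Ube2c, which hands ubiquitin to the anaphase-promoting complex, had r = 0.71, and Ube2c with the mitotic kinase gene Plk1 had r = 0.69. Ube2c ran from 0 to 50 UMIs per cell with a median of 8. Within the 269 cells called G2/M, 39 of the 1081 pairs (3.61%) reached 0.3, and within the 492 cells called S 166 did (15.4%). Phases were called from these same genes. Picking cells by phase narrows the range of the genes, so lower counts follow in part from the picking.

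The promoters of the 4 genes in the leading G2/M pairs are shown to set the shared pattern beside the sequence before each start. Each run holds the 250 bases before the RefSeq start on GRCm38.p6, 5′ to 3′ on the gene's strand. Cdk1 lies at chr10:69352913-69353162 (minus strand), Top2a at chr11:99024190-99024439 (minus), Nusap1 at chr2:119618048-119618297 (plus) and Ube2c at chr2:164769679-164769928 (plus). Capitals mark matches, on either strand, to TTTGAA, the letters of the cell cycle homology region (CHR), and to CCAAT, the letters bound by the factor NF-Y.
Cdk1: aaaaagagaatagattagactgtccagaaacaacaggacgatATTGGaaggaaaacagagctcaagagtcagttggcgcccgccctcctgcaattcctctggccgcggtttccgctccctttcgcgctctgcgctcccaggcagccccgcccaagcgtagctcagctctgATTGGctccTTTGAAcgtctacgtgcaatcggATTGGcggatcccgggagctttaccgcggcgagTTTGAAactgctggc
Top2a: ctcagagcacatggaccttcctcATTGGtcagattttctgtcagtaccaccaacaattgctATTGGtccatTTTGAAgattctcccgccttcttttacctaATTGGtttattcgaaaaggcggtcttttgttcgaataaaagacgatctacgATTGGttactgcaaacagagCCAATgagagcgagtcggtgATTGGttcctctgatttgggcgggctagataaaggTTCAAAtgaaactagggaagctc
Nusap1: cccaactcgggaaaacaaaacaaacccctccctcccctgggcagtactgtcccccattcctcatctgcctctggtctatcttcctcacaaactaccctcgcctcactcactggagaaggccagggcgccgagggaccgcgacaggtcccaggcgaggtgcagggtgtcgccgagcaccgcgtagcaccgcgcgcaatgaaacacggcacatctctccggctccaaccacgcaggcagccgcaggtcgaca
Ube2c: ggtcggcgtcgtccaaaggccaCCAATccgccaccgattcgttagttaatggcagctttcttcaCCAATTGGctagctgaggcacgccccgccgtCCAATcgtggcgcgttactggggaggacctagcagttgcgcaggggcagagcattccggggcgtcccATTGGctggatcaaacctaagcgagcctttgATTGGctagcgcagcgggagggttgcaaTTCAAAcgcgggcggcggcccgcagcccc

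Cdk1 held 2 CHR and 3 CCAAT matches, Top2a 2 and 6, and Ube2c 1 and 6, while these letters were not in the Nusap1 window. In Ube2c a pair of CCAAT matches on opposite strands overlap. Of 46 G2/M genes with a window, 19 (41.3%) held TTTGAA and 35 (76.1%) held CCAAT on either strand. Over all 32851 promoter windows of this length the shares were 16% and 33.8%. The G2/M windows were 1 per gene, while the full set can hold more than 1 start of a gene. Both were found in 17 of the 46 windows (37%) and in 5.55% of all windows. A match is a string of letters, and binding was not measured here.

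S phase genes were linked less tightly, with 23 of 630 pairs (3.65%) at 0.3 or more, beside 0.0588% of all pairs. The DNA repair gene Ung and Slbp, which binds histone mRNA, had r = 0.38. From the S phase and G2/M lists, 492 cells (64.4%) were called S, 269 (35.2%) G2/M and 3 (0.393%) G1. With a second random thinning these were 433, 330 and 1. The S share thus moved from 64.4% to 56.7% with the draw, and phase shares are read no closer than that. The caller gives G1 only to cells where neither list scores above its control genes, and otherwise takes the larger score. A cell called S may thus be in G1, and DNA content was not measured. The median depth was 42656 UMIs in cells called S and 50325 in cells called G2/M.

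Pairs of p53 targets were also linked. Of 153 pairs among 18 of them, 19 (12.4%) reached 0.3, beside 0.0588% of all pairs. The share was 14.3% among kinesins and centromere proteins, a list that shares members with G2/M. The p53 pairs were led by the cyclin G gene Ccng1 with Phlda3, an inhibitor of Akt (r = 0.49). Ccng1 with Mdm2, the ubiquitin ligase that restrains p53, had r = 0.41. Mdm2 ran from 0 to 24 UMIs per cell with a median of 2 and a Fano factor of 3.39, and Cdkn1a, the cell cycle inhibitor p21, from 0 to 27 with a median of 4 and a Fano factor of 2.58. The summed p53 list ran from 28 to 193 UMIs with a median of 64. Cells with more p53 target UMIs had fewer UMIs before thinning (r = -0.31), and the part of depth in this pattern was not tested. Within cells called G2/M, 34 of the 153 pairs (22.2%) reached 0.3.

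In the Nodal pathway, the ligand gene Nodal (75.1 CPM) needs the co-receptor Tdgf1, and Lefty1 and Lefty2 feed back to inhibit it. Nodal had a UMI in 567 cells and Tdgf1 in 756, with Fano factors of 1.67 and 4.19. Lefty2 had a UMI in 296 cells (38.7%), and ran from 0 to 34 with a median of 0. Lefty1 had a UMI in 140 cells (18.3%), with up to 43. Lefty1 and Lefty2 went together across cells (r = 0.55), although the mean of Lefty1 (0.687 UMI) is below the level set for pairs. They lie near each other at chr1:180935022-180938400 and chr1:180893108-180899103, and their transcripts aligned over 1157 bases at 91.4% identity, so some reads may be split between them and the r is uncertain. Lefty2 had r = 0.32 with Tdgf1 and r = 0.07 with Nodal itself. Tdgf1 also went with Dppa5a (r = 0.55) and against Sp5 (r = -0.31), the beta-catenin target. The 10 highest cells held 39.2% of Lefty1 UMIs and 18.4% of Lefty2 UMIs.

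Stress and metabolic genes formed smaller sets of linked pairs. In the unfolded protein and integrated stress list 16 of 153 pairs (10.5%) reached 0.3, led by the endoplasmic reticulum chaperones Hspa5 and Calr (r = 0.62). Phgdh and Psat1, enzymes of serine synthesis, had r = 0.53, and Shmt2 with Mthfd2, of mitochondrial one-carbon metabolism, r = 0.35. Atf4, which controls these amino acid genes, had r = 0.34 with Phgdh. The metallothionein genes Mt1 and Mt2 had r = 0.51, the glycolytic genes Pkm and Eno1 r = 0.58, and the cholesterol synthesis genes Hmgcs1 and Msmo1 r = 0.39. Chaperonin and prefoldin subunits reached 0.3 in 17 of 66 pairs (25.8%), beside 0.0588% of all pairs.

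Some of the most abundant genes were correlated in either direction. Eef2 and Eef1a1, the elongation factors, had r = 0.72, while H2afz had r = -0.63 with Eef1a1, the lowest of all pairs. Eif4a1 and the ribosomal protein gene Rps29 had r = -0.55. Within ribosomal protein genes 1268 of 3655 pairs (34.7%) reached 0.3, and among 10 mitochondrially encoded genes 32 of 45, beside 0.0588% of all pairs. Rplp0 with its copy Gm8730 had r = 0.83, the highest of all pairs, and the assignment of reads between the copies was not tested. Without the cells above 5% mitochondrial UMIs, 27 of the 45 mitochondrial and 936 of the 3655 ribosomal pairs reached 0.3.

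**Figure D4:**
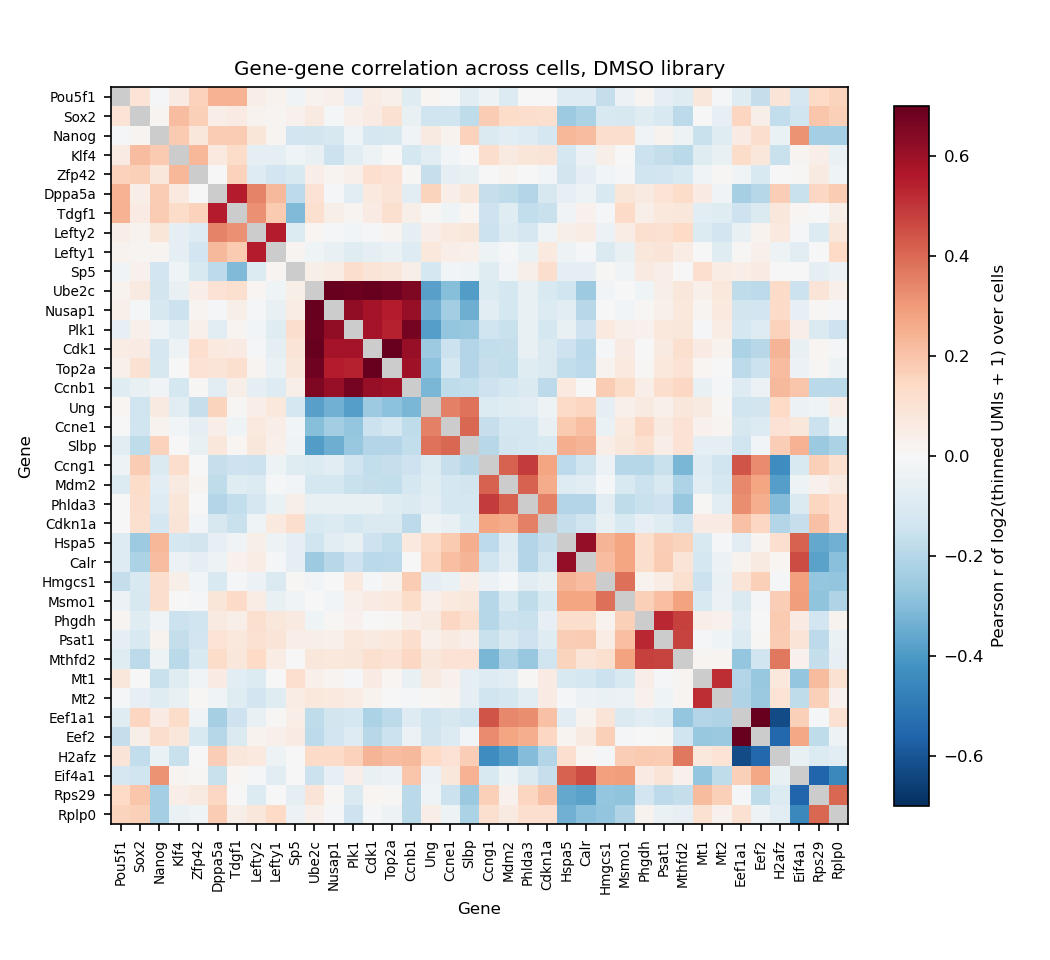
Pearson r across 764 cells for pairs of 38 genes named in the text, both axes in the same order and the diagonal in grey, on a colour scale from -0.7 to 0.7. G2/M genes (Ube2c to Ccnb1) and p53 targets (Ccng1 to Cdkn1a) form blocks, and the ground-state markers at the top left stay pale against each other, with r of 0.23 at most.

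Principal components were taken of the 612 genes past 1.5, whether or not they were on a list. These genes include 30 of the G2/M list, 11 of the S phase list, 14 of the p53 list and 65 ribosomal protein genes. The components thus share genes with the scores and sums below, and part of each r follows from that. The first component held 7.79% of the variance and set Ube2c, Plk1 and Cdc20 against Sdc4, Ccng1 and Mdm2. Its correlation was 0.80 with the G2/M score and 0.44 with log depth before thinning. The second (5.70%) set Ube2c, Cenpf, Malat1 and Ccng1 against the S phase genes Ung, Ccne1 and Slbp and the secreted protein gene Spp1. Its correlation was 0.66 with the summed p53 targets, -0.58 with the S score and 0.54 with the G2/M score. The third (3.82%) set Vcp, Hspa5 and Hmgcs1 against Dppa5a and Rpl41, and had r = -0.60 with log depth and r = -0.66 with the summed ribosomal proteins. A further component (2.23%), described after its values were seen, set Akr1b3, Cd24a and Epcam against Aqp3 and Bmp4.

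Y-linked genes were found in nearly all cells of this male line. Y-linked genes gave 0 to 15 UMIs per thinned cell, with a mean of 4.29. Of the 764 cells 25 had no Y-linked UMI, where counting at the mean level gives 10.4. With all UMIs 20 cells of the whole library had none, where counting gives 2.89. Xist, the RNA that coats an inactive X chromosome, stood at 1.72 CPM.

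With UMIs summed by chromosome, chromosome 6 varied most from cell to cell against counting. It gave a median of 8.14% of a cell's UMIs from genes on chromosomes 1 to 19, X and Y, with 6.25% at the 5th percentile and 8.63% at the 95th. Its SD over cells was 5.21 times that from counting. For the other autosomes and X this ratio ran from 1.73 to 3.86. In the library 84 cells lay 15% or more below the median chromosome 6 share and 3 as far above it. On the other autosomes 1 to 23 cells lay as far below. Without the 20 most abundant genes of each chromosome, 88 cells lay below on chromosome 6 and 3 to 26 on the other autosomes.

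**Figure D5:**
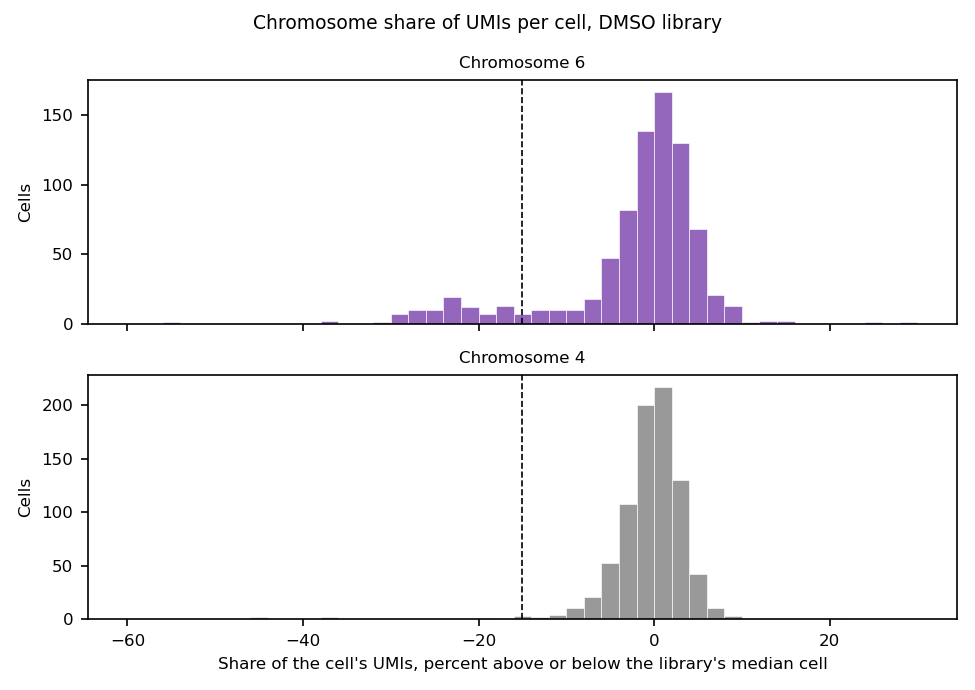
Share of a cell's UMIs from chromosome 6 (top) and chromosome 4 (bottom), as percent above or below the library's median cell (horizontal axis), against the number of cells (vertical axis). Dashed lines mark 15% below. On chromosome 6 84 cells lie beyond it, 36 of them between 25% and 20% below, and on chromosome 4 it is 6 cells.

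To read this pattern on genes that did not choose the cells, the low cells were picked from every second gene along chromosome 6 and measured on the rest, with the 20 most abundant genes and the markers kept out of the picking. This picked 72 cells (8.88%, exact binomial 7.01 to 11.1). Their median share from the 435 genes held back was 1.74% of UMIs against 2.36% in the other 739 cells, which is 73.8%. The same rule picked 4 to 62 cells on the other autosomes and 40 on X, with the genes held back at 59.8 to 97.1% of the rest. The shares of both gene sets of chromosome 6 had r = 0.83 across cells, against 0.21 to 0.66 on the other autosomes and X. Among genes with at least 500 UMIs, 183 of 202 chromosome 6 genes that did not choose the cells were lower in the 72 cells, with a median of 76.8% of the level in the rest. On the other autosomes and X 44.7 to 64.6% of genes were lower, with medians of 94.3 to 102%.

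The levels were lowest in the part of the chromosome beyond 40 Mb on GRCm38. Before it, among genes with at least 500 UMIs, 7 of 7 were lower at 0 to 10 Mb and 9 of 9 at 20 to 30 Mb. At 10 to 20 Mb 1 of 6 was lower, and at 30 to 40 Mb 8 of 17. In 10 Mb windows, the genes held back stood at 89.3 to 102% of the level in the other cells up to 40 Mb, and at 60.4 to 82.0% in every window from there to the end of the chromosome. Asns, the asparagine synthetase gene at 7675169 to 7693254, stood at 98.2%, above the median gene of its window (90.2%). Further along, Mcm2, a subunit of the replicative helicase, stood at 55.4%, Trh (92242061 to 92244650) at 57.8%, the glucose transporter gene Slc2a3 at 56.4% and Gapdh (125161715 to 125166467) at 81.8%. Trh was at 1777 CPM (1732 to 1823) in the low cells and 3077 CPM (3059 to 3095) in the rest. Nanog (122707489 to 122714633) stood at 91.1%, 269.7 CPM (252 to 288) against 296 CPM (291 to 302).

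Depth and mitochondrial share were close in the 72 cells and the rest, with medians of 42558 against 44872 UMIs and 2.67% against 2.55%. The share called G2/M was 45.5% against 34.2%. Without them the Fano factor of Trh was 18.8 in place of 19.3, and 584 genes passed 1.5 in place of 612. DNA content was not measured here, so the cause was not tested.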

How the data were processed

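The authors deposited raw counts: UMIs of each gene in each cell as whole numbers, with no normalization, per the file headers and values. The submitters' processing notes name Cell Ranger 2, Seurat and mm10. How barcodes were called cells is not given in the sources used here. No doublet caller was run, and the deepest 5% of cells were left out as an alternative. The libraries shared 2 barcodes.

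Thinning was to 23500 UMIs (a depth near the 10th percentile of the pooled cells, rounded down to a multiple of 500), as an exact expectation for the Fano factor and CV2 and as 1 seeded draw for shares of cells, correlations, phases (scanpy 1.11.5) and components. The measures were tested on simulated data. Positions are from GENCODE M21 (27645 of 27998 identifiers matched). Poisson and Clopper-Pearson 95% intervals, and the limit of 3 counts for a count of 0, cover counting error only.

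Named genes were the 6 markers, the 25 highest by level, by Fano factor and by CV2, the 15 of the rare range, the 10 most even, list leaders, leading pairs and the leading genes of 3 components. Other genes named were chosen after their values were seen. The members and lists were chosen with earlier results of these data known. Alternatives changed depth, scaling, cells, filter, seed and correlation measure. Some genes that the rule names are not reported here.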

Additional observations from a re-analysis of the deposited data

How the results depend on the processing

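Of 89 genes tracked by Fano factor, 67 kept their side of 1.5 under all settings run, and of 29 pairs 23 kept their sign and their side of 0.3. The exceptions included Nanog (1.37) and Sox2 (1.37) at 10000 UMIs, and Ube2c with Ccng1, whose r of -0.10 was 0.016 within cells called G2/M. The count of genes past 1.5 was 255 at 10000 UMIs and 1398 with all UMIs scaled to the mean depth, in place of 612. With all UMIs 19008 pairs reached 0.3 and 5018 were at -0.3 or lower, in place of 4327 and 1098. The latter count was 543 by Spearman rho, 704 without the deepest 5% of cells, 1872 within cells called S and 640 without cells above 5% mitochondrial UMIs. Leaving out the cells low in chromosome 6 UMIs, or those of high mitochondrial share in the correlations, was chosen after seeing the data.

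The share of cells with a UMI followed depth. At 10000 UMIs it was 95.7% for Sox2, 92.0% for Nanog, 92.1% for Klf4 and 29.0% for Esrrb, and with all UMIs 99.6% for Klf4 and 77.2% for Esrrb. The share of cells called S was 56.7% with a second seed, and that called G2/M 43.2%. By list sums above the library's median these were 49.6% and 49.9%, a split fixed by the median. The ribosomal share of UMIs was 13.2% as a mean over cells, 13.4% in cells at the depth and 13.2% without the deepest 5%, and the mitochondrial share 2.70%, 2.70% and 2.67%. Naive genes took 0.940% of UMIs once mitochondrial and ribosomal genes were left out. The spread within cells called G1 was not run, since there were 3. The replicate spread is unknown with 1 library. No paired analysis was possible because each group has 1 library.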
